A study of Homo sapiens with 4 samples.

Results

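The RUNX transcription factors, their partner subunit CBFB and the ETO family of corepressors were followed across 4 human Nalm-6 cultures on 1-colour microarrays. The set holds 7 genes, RUNX1, RUNX2, RUNX3, CBFB, RUNX1T1, CBFA2T2 and CBFA2T3, of 18203 genes with a named probe, and 10 probes of 27210 named probes. The members were chosen by gene family and by a measured value, the high signal of RUNX1T1 outside wild-type cells, so the RUNX1T1 levels below are a description and carry no test.

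Nalm-6 is a human pre-B leukemia line. The study asked how Arp5 and Arp8, actin-related subunits of the INO80 chromatin remodeling complex, take part in the response to heme, an oxidative stress inducer. The 4 groups, with 1 array each, were wild-type cells (WT), cells with the gene for Arp5 disrupted (Arp5 KO), cells with the gene for Arp8 disrupted (Arp8 KO) and a culture labelled as overexpressing Arp8 (labelled Arp8 OE). All were Nalm-6 cells. Per the study's methods both alleles of the Arp5 gene were disrupted by targeting vectors, by a modified form of the protocol used earlier for the Arp8 KO cells. The paper also states that conditional knockout of Arp8, which the authors had reported before, was lethal to cells. Arp5 KO cells grew more slowly but survived. How many clones were used, and how Arp8 was overexpressed, is not given in the sources used here. The titles and the treatment protocol gave 20 uM heme for 12 h to every culture, whereas the treatment entry of both knockouts said that no heme was given, and the source entry said so for Arp5 KO only. WT and the culture labelled as overexpressing Arp8 had heme in every entry. Genotype and treatment therefore cannot be told apart for the knockouts.

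RUNX proteins bind DNA through their Runt domain as heterodimers with CBFB, which binds no DNA itself and raises the affinity of its partner. In the blood, RUNX1 is needed for the first hematopoietic stem cells and for B-lymphoid, T-lymphoid and megakaryocytic development, RUNX3 acts in T and NK cells, and RUNX2 is best known as the regulator of bone formation. The ETO proteins, RUNX1T1 (ETO, MTG8), CBFA2T2 (MTGR1) and CBFA2T3 (ETO2, MTG16), bind no specific DNA sequence. They are recruited by E proteins and zinc finger repressors and in turn carry NCOR1 and SIN3A corepressors and histone deacetylases. RUNX1 and RUNX1T1 are best known as the genes joined in the AML1-ETO fusion of acute myeloid leukemia.

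The promoter windows used, those of 5 of the 7 genes, are described first, since RUNX genes are known to carry sites for their own product. RefSeq windows of assembly GRCh38.p14, from 250 bases before to 50 bases after a start site, were searched on both strands for TGTGGT, the core letters of a RUNX site (ACCACA on the other strand). No window was used for CBFB or RUNX1T1. A window of RUNX2 and a window of RUNX3 each held a pair of copies on the same strand that started 8 bases apart. The 2 pairs are shown with 8 bases on either side, the RUNX letters in capitals; the RUNX2 pair lies at chr6:45328338-45328367 on the plus strand, after the start site, and the RUNX3 pair at chr1:24965120-24965149 on the minus strand, before it.
RUNX2: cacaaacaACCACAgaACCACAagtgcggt
RUNX3: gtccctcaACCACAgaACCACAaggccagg

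The RUNX2 window at that start site held 4 copies of the RUNX letters, at offsets -191, -87, 16 and 24 from the start site. The RUNX3 window held 2, at -131 and -123. At least 1 copy was present in 13.1% of all windows over the whole length and in 11.0% over the upstream 250 bases. A pair on the same strand that started 8 bases apart was present in 4 of 35116 windows (0.0114%), those of OR52N2 and LOC105369321 included. Windows with 4 or more copies numbered 5 (0.0142%). The windows of RUNX1, CBFA2T2 and CBFA2T3, and the other window of RUNX2 and of RUNX3, held none. A match is a description of letters and not a bound site, and the probes of RUNX2 and RUNX3 gave no usable signal in these cells (below).

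The upstream window of CBFA2T3 is shown because this gene, together with RUNX1T1, differed most between the cultures. It covers chr16:88941351-88941600 on the minus strand, and its capitals mark the single match to the E-box letters CANNTG, the class of site that E proteins bind. E-box letters were present in 61.8% of all upstream windows, so their presence does not set CBFA2T3 apart.
CBFA2T3: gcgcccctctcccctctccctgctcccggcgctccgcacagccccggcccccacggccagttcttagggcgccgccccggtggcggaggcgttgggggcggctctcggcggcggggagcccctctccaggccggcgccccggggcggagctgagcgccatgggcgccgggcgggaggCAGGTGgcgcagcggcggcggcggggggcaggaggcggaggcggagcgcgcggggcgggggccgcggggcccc

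Signal was taken as the processed intensity divided by the 75th percentile of its array, on a log2 scale, so that a level of 0 is a signal equal to that percentile. The arrays were alike in brightness. The 75th percentile lay between 647.4 and 739.6, between 55.8% and 57.4% of probes were well above background, and no spot was saturated. Probes printed 10 times gave a technical SD of 0.08 for a log2 difference between arrays, and 0.16 at levels between -4.5 and -2.5. This covers spots of 1 array and not separate cultures, and with 1 array a group no difference below has a replicate check. ACTR5, the gene for Arp5, lay 19.3-fold below its WT signal in Arp5 KO cells. The 2 probes of ACTR8, the gene for Arp8, were 1.44-fold and 1.60-fold lower in Arp8 KO cells, and whether they lie within the disrupted stretch was not determined. In the array labelled Arp8 OE the same probes differed from WT by 0.02 and -0.01 on the log2 scale, so these 2 probes do not show the overexpression that its label gives. Whether they bind the transcript of the construct was not determined. HMOX1, the heme-induced gene of the study, was lower than in WT cells by 7.88-fold in Arp5 KO cells, 7.52-fold in Arp8 KO cells and 4.16-fold on the array labelled Arp8 OE. With normexp, another background correction, the log2 difference of ACTR5 was -2.84 in place of -4.27, and those of HMOX1 were -2.11, -2.0 and -1.53 in place of -2.98, -2.91 and -2.05.

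Of the 13 marker genes of B precursors, all 18 probes were well above background on the 4 arrays, among them those of PAX5, VPREB1 and IGLL1. Of 6 T cell marker genes, 5 had a probe and 2 were well above background on any array, CD3E on the Arp8 KO array alone and LCK, which B precursors also express, on all 4. The defining T cell markers CD3D, CD3G and CD2 were well above background on none. Among myeloid markers 3 of 6 probes, and among erythroid and megakaryocyte markers 3 of 10 probes, were well above background on any array, and MPO, ELANE, HBB and KLF1 were on none. In bulk RNA, fewer cells of a type and less RNA per cell cannot be told apart.

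RUNX1T1 and CBFA2T3 were the members that differed most between the cultures, and both were lowest in WT and highest in Arp8 KO cells. RUNX1, CBFB and CBFA2T2 differed by less than 2-fold on every probe, while neither RUNX2 nor RUNX3 was well above background anywhere. In all, 8 of the 10 member probes, for 5 of the 7 genes, were well above background on all 4 arrays. In Arp5 KO, 2 of these 8 probes were over 2-fold higher than in WT cells and 0 over 2-fold lower, against 1.69% and 2.01% of the 24285 probes compared. In Arp8 KO, 2 were over 2-fold higher and 0 lower, against 3.37% and 4.35% of 24578 probes. In the array labelled Arp8 OE, 1 was over 2-fold higher and 0 lower, against 2.96% and 2.15% of 24177 probes. The RUNX1T1 probe, for which the set was picked, is 1 of the probes counted as higher in each. The 3 comparisons share the WT array, so any deviation of that array enters all of them.

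**Figure D1:**
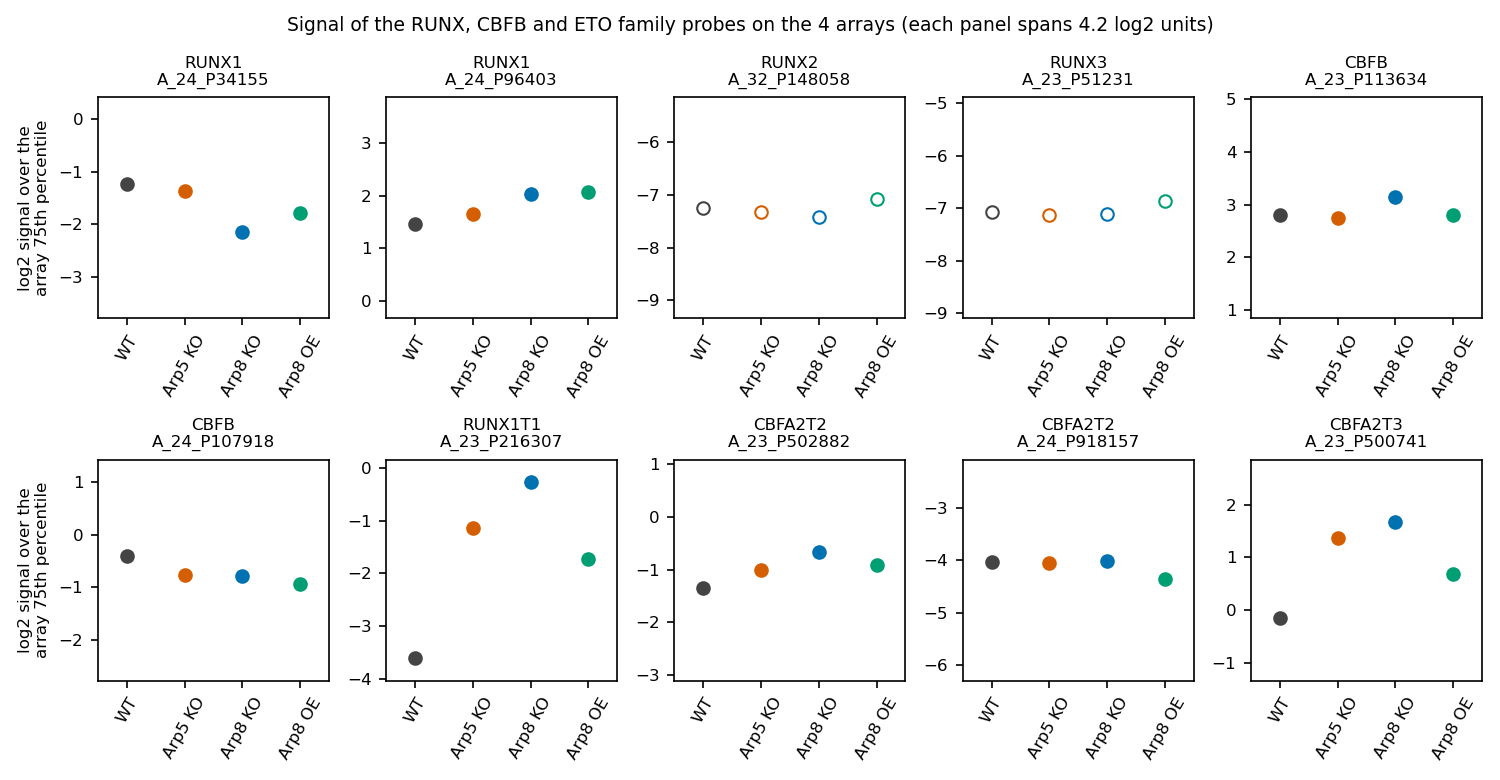
Log2 signal over the array's 75th percentile (y axis, each panel spanning the same number of log2 units) of the 10 member probes on the 4 arrays (x axis), 1 point an array; open points were not well above background. RUNX1T1 ran from -3.61 in WT to -0.27 in Arp8 KO cells and CBFA2T3 from -0.16 to 1.67, while the points of the other probes lay within 1 log2 unit.

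RUNX1T1, the founding ETO corepressor, had 1 probe, printed as 1 spot, with a log2 level of -3.61 in WT, -1.13 in Arp5 KO cells, -0.27 in Arp8 KO cells and -1.73 on the array labelled Arp8 OE. The processed signals behind these levels were 60.18, 337.2, 544.7 and 195.1. WT thus lay below the other 3 arrays, the pattern for which the gene was picked, and the smallest gap between neighbours in the order was 0.60, between Arp5 KO and the array labelled Arp8 OE. The difference from WT was 5.57-fold in Arp5 KO cells, which placed the probe at rank 66 of 24285 from the highest. It was 10.1-fold in Arp8 KO cells, rank 11 of 24578, and 3.68-fold on the array labelled Arp8 OE, rank 203 of 24177. The WT spot was dim, and these sizes depend on the background correction: with normexp the log2 differences were 1.49, 2.16 and 1.03 in place of 2.48, 3.34 and 1.88.

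CBFA2T3, the ETO family member best known from blood precursors, also had 1 probe, with log2 levels of -0.16 in WT, 1.36 in Arp5 KO cells, 1.67 in Arp8 KO cells and 0.68 on the array labelled Arp8 OE. The signals were 658.5, 1903, 2087 and 1040, well above background on every array. The cultures ran in the same order as for RUNX1T1, with a gap of 0.31 between the knockouts. Against WT the probe was 2.87-fold higher in Arp5 KO cells and 3.55-fold higher in Arp8 KO cells, at ranks 224 and 162 from the highest. In the array labelled Arp8 OE it was 1.79-fold higher, at rank 1005 and short of 2-fold. On the WT array 1 of the 6 spots around it was over 2-fold brighter than on the other 3 arrays, and the part of that neighbour in the low WT value was not tested. No other member probe had such a neighbour.

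CBFA2T2, the third ETO corepressor, had 2 probes that differed in pattern. The first, A_23_P502882, had log2 levels of -1.36 in WT, -1.0 in Arp5 KO cells, -0.66 in Arp8 KO cells and -0.92 on the array labelled Arp8 OE. It was thus lowest in WT and highest in Arp8 KO cells, as were the other 2 family members, but by 1.28-fold, 1.62-fold and 1.36-fold over WT. The second, A_24_P918157, was dim, with levels of -4.04, -4.05, -4.03 and -4.35 in the same order of cultures. Its differences from WT were -0.01 in Arp5 KO cells and 0.01 in Arp8 KO cells, within the technical SD at that level, and -0.31 on the array labelled Arp8 OE. The mean of the 2 probes differed from WT by 0.17, 0.36 and 0.06.

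RUNX1, the RUNX factor of blood precursors, was the one RUNX gene with signal, and its 2 probes ran in opposite directions. Probe A_24_P96403, which the files assign to the AML1b transcript, had log2 levels of 1.47 in WT, 1.65 in Arp5 KO cells, 2.03 in Arp8 KO cells and 2.07 on the array labelled Arp8 OE. Probe A_24_P34155, assigned to the short AML1a transcript, which lacks the C-terminal activation and repression domains, had levels of -1.23, -1.36, -2.14 and -1.78. The first was 1.48-fold higher and the second 1.87-fold lower in Arp8 KO cells than in WT cells, while the array labelled Arp8 OE had them 1.52-fold higher and 1.46-fold lower. In Arp5 KO the differences were 0.18 and -0.13. The mean over both probes differed from WT by 0.03, -0.17 and 0.03. Which transcripts each probe binds beyond its assigned one was not tested.

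**Figure D2:**
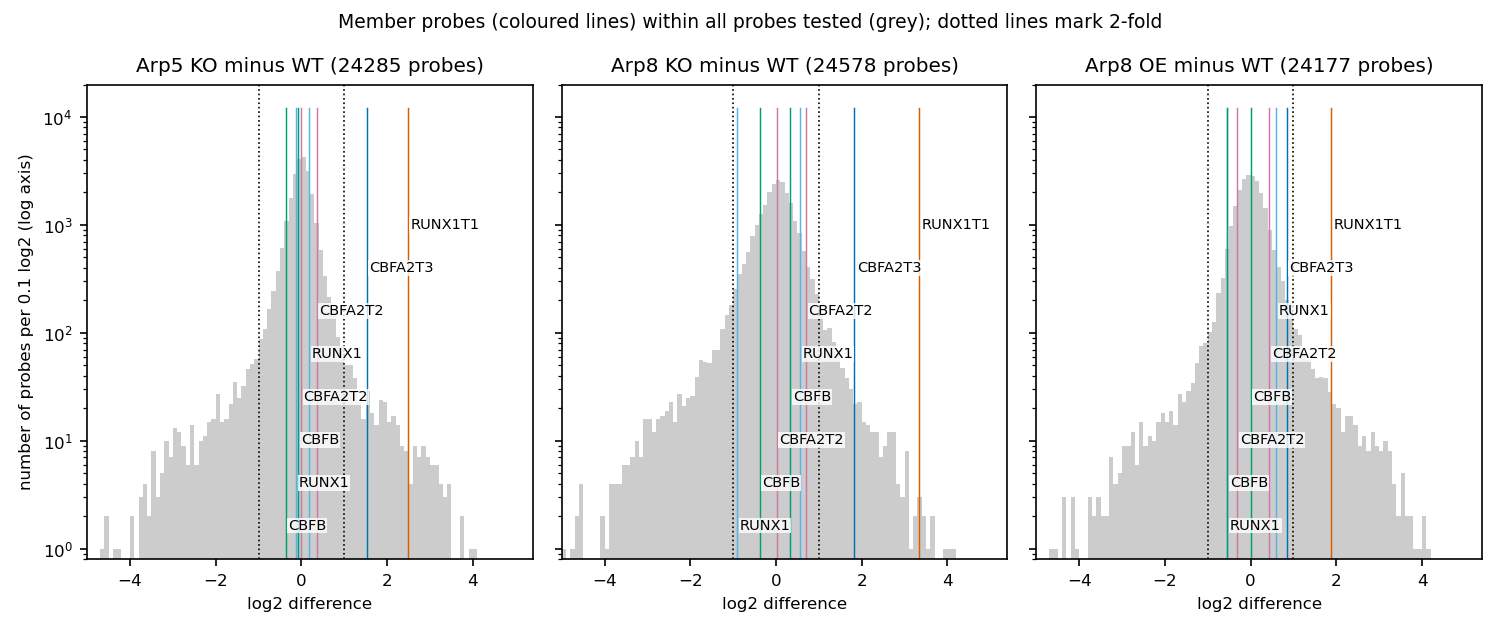
Log2 difference from WT (x axis) of the 8 member probes well above background (coloured lines, labelled by gene) over the number of all probes compared per step of the axis (grey bars, log axis), in Arp5 KO cells, Arp8 KO and the array labelled Arp8 OE; dotted lines mark 2-fold. Beyond 5 log2 units 1, 3 and 2 probes are not drawn, and RUNX1T1 lies in the right tail of each panel, at 2.48, 3.34 and 1.88.

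RUNX2 and RUNX3 had 1 probe each, and neither was well above background on any array. The signals of the RUNX2 probe were 4.814 in WT, 4.604 in Arp5 KO cells, 3.855 in Arp8 KO cells and 4.784 on the array labelled Arp8 OE. Those of the RUNX3 probe were 5.476, 5.276, 4.75 and 5.585. No fold is given for either, and a transcript that these probes do not bind would not be seen.

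CBFB, the partner that all RUNX proteins share, was bright on 1 probe and varied little. Probe A_23_P113634 had log2 levels of 2.81 in WT, 2.74 in Arp5 KO cells, 3.14 in Arp8 KO cells and 2.81 on the array labelled Arp8 OE, so that Arp8 KO was 1.26-fold above WT and the other 2 lay within the technical SD of it. Probe A_24_P107918 had levels of -0.41, -0.78, -0.78 and -0.95. There WT was highest, and the other arrays were lower by 1.29-fold, 1.30-fold and 1.46-fold.

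Counted at 1.5-fold, 2 of the 8 probes differed from WT in Arp5 KO cells, both higher, where 8.84% of all probes did so. In Arp8 KO the count was 4, of which 3 were higher (RUNX1T1, CBFA2T3 and CBFA2T2) and 1 lower (RUNX1 AML1a), where the share over all probes was 21.3%. In the array labelled Arp8 OE it was 3, all higher (RUNX1T1, CBFA2T3 and RUNX1 AML1b), with 13.6% over all probes. The median log2 difference of the 8 probes was 0.08 in Arp5 KO cells, 0.45 in Arp8 KO cells and 0.22 on the array labelled Arp8 OE, beside medians over all probes of 0.00, 0.03 and 0.00. These counts and medians include the RUNX1T1 probe, for which the set was picked, so they are a description of the set and carry no test.

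The knockouts were also compared with each other and with the array labelled Arp8 OE, without WT. Between Arp8 KO and Arp5 KO, 0 of the 8 probes differed by over 2-fold, where 5.71% of all probes did. RUNX1T1 was 1.82-fold higher in Arp8 KO cells and the AML1a probe of RUNX1 1.72-fold lower. Between Arp8 KO and the array labelled Arp8 OE, 1 of 8 differed by over 2-fold, where 5.43% of all probes did. It was RUNX1T1, which was 2.76-fold higher in Arp8 KO cells, followed by CBFA2T3 at 1.98-fold.

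The probe closest to RUNX1T1 over its 3 differences from WT, by Euclidean distance on the log2 scale among 16647 named probes well above background on the 3 other arrays, was that of MAB21L2, a regulator of eye and body wall development, at a distance of 0.96. Its log2 differences were 1.87 in Arp5 KO cells, 2.66 in Arp8 KO cells and 2.17 on the array labelled Arp8 OE. SOCS2, a feedback inhibitor of cytokine signalling, followed at 1.09, with differences of 2.37, 3.43 and 0.80, and its other probe gave 1.98, 2.79 and 0.34. SOCS2, on the probe named, and PIGZ, whose knockouts were almost level, shared the order of the cultures with RUNX1T1. MAB21L2 had the array labelled Arp8 OE above Arp5 KO cells. The difference of SOCS2 on the array labelled Arp8 OE was smaller than that of RUNX1T1. The next 3 were PIGZ, an enzyme of GPI anchor synthesis, MEGF11, a membrane protein with EGF-like repeats, and LHX2, a LIM homeobox factor, at distances of 1.36, 1.41 and 1.55. These genes were not well above background in WT and entered through the arrays where they were high, so their differences are bounds and their distances and places, like that of CBFA2T3 among them, rest on the level to which dim WT values were raised: at least 2.11, 2.12 and 1.43 for PIGZ, 1.21, 2.76 and 1.68 for MEGF11 and 1.56, 2.09 and 1.98 for LHX2. With normexp the differences were 0.88, 0.91 and 0.59 for PIGZ, 0.40, 1.31 and 0.73 for MEGF11 and 0.61, 0.88 and 0.86 for LHX2, so that 2-fold was kept by MEGF11 in Arp8 KO cells alone. CBFA2T3 stood at place 20, at a distance of 2.07. Of 16648 named probes, RUNX1T1 included, 20 were over 2-fold above WT on all 3 other arrays.

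**Figure D3:**
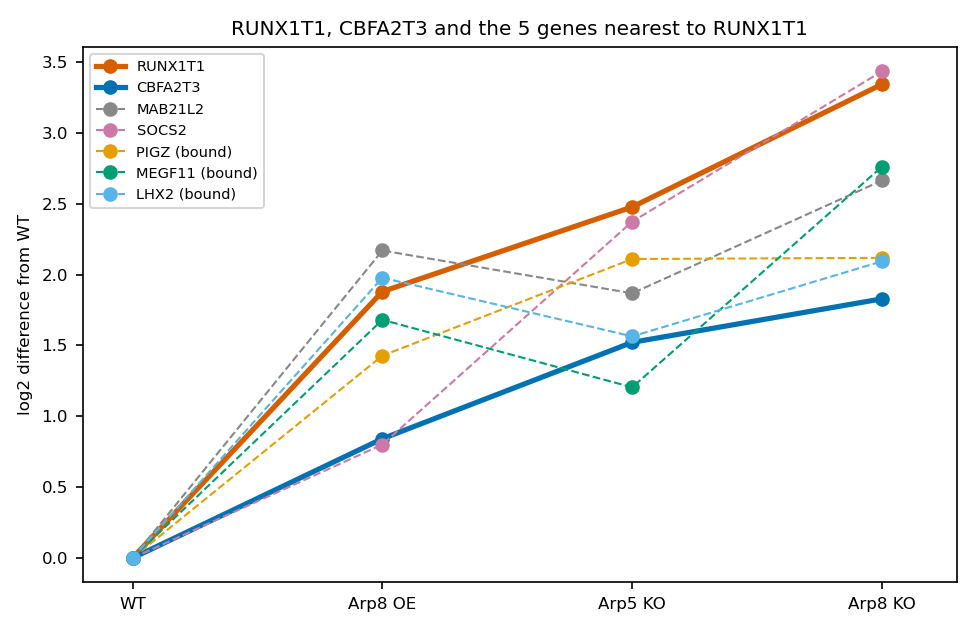
Log2 difference from WT (y axis) in WT, the array labelled Arp8 OE, Arp5 KO cells and Arp8 KO (x axis, in this order) for RUNX1T1, the 5 genes with the nearest pattern and CBFA2T3. Each line joins the values of 1 probe and starts at 0 in WT. All values outside WT lie above 0, and differences of PIGZ, MEGF11 and LHX2 are bounds because WT was not well above background.

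The corepressor machinery that ETO proteins carry (among others HDAC1, HDAC2, HDAC3, NCOR1, SIN3A, TBL1X, TBL1XR1 and GPS2) was present in all cultures and showed no probe past 2-fold. Of its 16 probes, 15 could be compared in each knockout and 16 on the array labelled Arp8 OE, and the medians were 0.06 in Arp5 KO cells, -0.01 in Arp8 KO cells and 0.11 on the array labelled Arp8 OE. The widest values were those of Arp8 KO, from -0.70 for 1 of the 5 TBL1XR1 probes to 0.92 for 1 of the 2 SIN3A probes, whose other probe gave 0.18.

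The E proteins and the LMO2, LDB1 and TAL1 complex, which recruit CBFA2T3 to DNA in blood precursors, likewise had 0 of 10 probes past 2-fold in Arp5 KO cells, 0 of 11 in Arp8 KO cells and 0 of 10 on the array labelled Arp8 OE. Their medians were 0.01, 0.17 and 0.10. TCF4, one of the E proteins, had the highest values in Arp8 KO cells, 0.89 and 0.63 on its 2 probes. LMO2 was at -0.30 in Arp5 KO cells, 0.62 in Arp8 KO cells and 0.46 on the array labelled Arp8 OE. No array had GATA1 or GATA2, the erythroid and stem cell members of the complex, well above background, and TAL1 was so on 1 of its 2 probes in Arp8 KO cells and on neither probe elsewhere.

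The zinc finger repressors that recruit ETO proteins were the partner list with values past 2-fold. BCL6, the repressor of germinal centre B cells, had log2 levels of 2.13 in WT, 1.19 in Arp5 KO cells, -0.61 in Arp8 KO cells and 1.03 on the array labelled Arp8 OE. It was thus highest in WT and lowest in Arp8 KO cells, the reverse of the ends of the RUNX1T1 order, and lay 1.92-fold, 6.70-fold and 2.14-fold below WT. GFI1B, a repressor of erythroid and megakaryocytic cells, was not well above background in WT or on the array labelled Arp8 OE. The first of its probes was at least 3.03-fold higher than WT in Arp5 KO cells and at least 3.40-fold in Arp8 KO cells, and the other at least 5.95-fold in Arp8 KO cells alone. Each of these probes had 1 neighbouring spot bright on 1 array alone, Arp5 KO for the first and Arp8 KO for the second, as did BCL6 on the Arp5 KO array, and the part of those spots was not tested. With normexp the GFI1B differences lay below 2-fold, at 0.89 and 0.89 for the first probe and 0.98 for the second. ZBTB16 (PLZF) gave 0.45, 0.76 and 0.07 and GFI1 0.34, 0.58 and -0.06 in Arp5 KO cells, Arp8 KO and the array labelled Arp8 OE. The ZBTB16 probe was dim, at a level of -4.73 in WT, and not well above background on the array labelled Arp8 OE. Over the list 1 of 5 probes was higher and 0 lower in Arp5 KO cells, 2 of 6 were higher and 1 lower in Arp8 KO cells, and 0 of 4 were higher and 1 lower on the array labelled Arp8 OE, with medians of 0.34, 0.67 and 0.00. Over all probes 1.69% were higher and 2.01% lower in Arp5 KO cells, 3.37% and 4.35% in Arp8 KO cells, and 2.96% and 2.15% on the array labelled Arp8 OE.

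**Figure D4:**
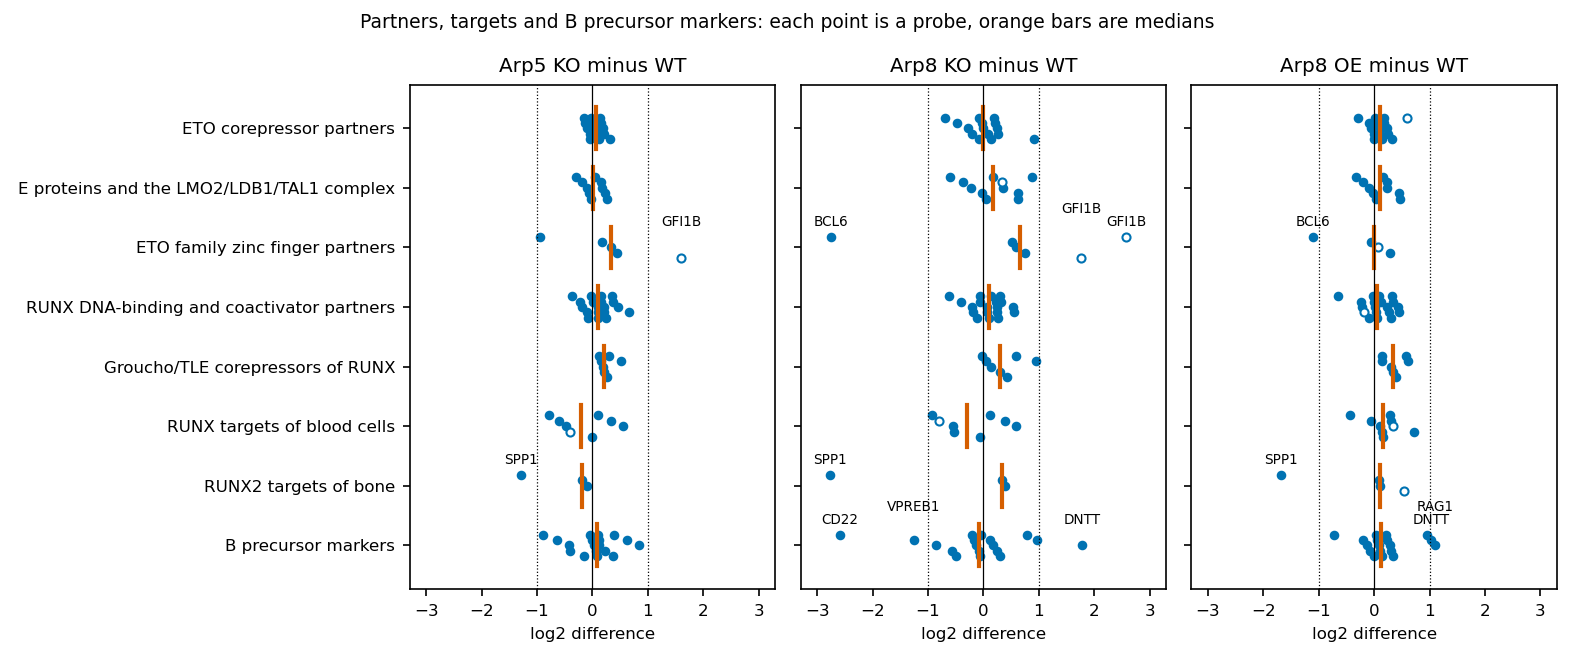
Log2 difference from WT (x axis) of each probe of 8 gene lists (rows), with an orange bar at the list's median, in Arp5 KO cells, Arp8 KO and the array labelled Arp8 OE; open points are bounds, dotted lines mark 2-fold and genes past it are named. Values past 2-fold lie in the zinc finger partners (BCL6, GFI1B), SPP1 and the B precursor markers.

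Factors that bind DNA or chromatin together with RUNX1, among them ETS1, FLI1, ERG, MYB, CREBBP and EP300, had 19 probes in each comparison and 0 past 2-fold, with medians of 0.11, 0.11 and 0.05 in Arp5 KO cells, Arp8 KO and the array labelled Arp8 OE. ETS1, which binds DNA cooperatively with RUNX1, had 3 probes that disagreed in sign, at -0.62, -0.07 and 0.32 in Arp8 KO cells. The Groucho/TLE family, whose full-length members bind the C terminus of RUNX proteins, had 7 probes and 0 past 2-fold, with medians of 0.20, 0.30 and 0.34. TLE5, a short member of the family, reached 0.96 in Arp8 KO cells on 1 of its 3 probes, the others giving 0.30 and 0.14. TLE3 was not well above background.

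Genes known as RUNX targets in blood cells numbered 13, of which ZBTB7B had no probe under that symbol. In the 2 knockouts 8 probes could be compared and on the array labelled Arp8 OE 9, with 0 past 2-fold in any and medians of -0.21, -0.30 and 0.16. With both arrays required to be well above background, the knockout medians were -0.01 and -0.06. BLK, a B cell kinase, was at -0.48 in Arp5 KO cells, -0.93 in Arp8 KO cells and 0.14 on the array labelled Arp8 OE. SPI1 (PU.1), the myeloid and B-lymphoid factor, was at -0.79, -0.54 and 0.11. CD4, which RUNX factors silence in T cells, was at 0.55, 0.40 and 0.72. CSF1R, a myeloid target, was dim and well above background only in WT and on the array labelled Arp8 OE. It was at least 1.33-fold lower than WT in Arp5 KO cells, at least 1.74-fold lower in Arp8 KO cells and at 0.16 on the array labelled Arp8 OE. The targets MPO, ELANE, CSF2 and IL3 were not well above background. Of the 7 RUNX2 targets of bone, COL1A1 had no probe under that symbol and SP7, IBSP and MMP13 were not well above background. SPP1, which encodes osteopontin and is also made by immune cells, was the one past 2-fold, at -1.28 in Arp5 KO cells, -2.77 in Arp8 KO cells and -1.68 on the array labelled Arp8 OE. It was 1 of 3, 3 and 4 probes compared, and the medians were -0.18, 0.34 and 0.10. The other probes compared were those of BGLAP, and on the array labelled Arp8 OE also 1 of ALPL. Each knockout median is thus the value of a BGLAP probe and does not summarise several targets.

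Among the B precursor markers, which share EBF1 with the RUNX targets, 0 of 18 probes passed 2-fold in Arp5 KO cells, 1 was higher and 2 were lower in Arp8 KO cells, and 2 were higher and 0 lower on the array labelled Arp8 OE, with medians of 0.08, -0.07 and 0.12. The shares over all probes were 3.37% higher and 4.35% lower for the former and 2.96% and 2.15% for the latter. CD22, an inhibitory coreceptor, was at -0.89, -2.58 and -0.73, and VPREB1, a chain of the surrogate light chain, at -0.42, -1.26 and 0.00. DNTT, the terminal transferase of early precursors, was at 0.84, 1.78 and 1.02, and the recombinase gene RAG1 at 0.38, 0.79 and 1.10 on 1 probe and 0.36, 0.98 and 0.96 on the other. EBF1 and PAX5 stayed between -0.08 and 0.30. LCK was at -0.62, -2.51 and -0.54, the 1 T cell marker past 2-fold, with medians over the T cell list of -0.62, -1.18 and -0.54 on 1, 2 and 1 probes. Myeloid markers had medians of -0.22, 0.20 and 0.06 on 2, 3 and 2 probes, erythroid and megakaryocyte markers -0.12, -0.29 and 0.28 on 2, 2 and 3 probes, and none of either passed 2-fold. The part of these marker differences in the values of RUNX1T1 and CBFA2T3 was not tested.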

How the data were processed

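Cy3-labelled RNA of 4 Nalm-6 cultures was hybridised to 1-colour Agilent arrays. The deposited scanner files hold processed signal intensity, extracted by the authors with Agilent Feature Extraction version 10.10.1.1 (background-subtracted and detrended within each array), and software flags for saturation, outliers and spots well above background, other values that the authors deposited beside it. The authors' deposited series matrix holds the same intensity times 1 factor an array (1.995 to 2.29) and was used as an alternative.

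Outlier spots were left out, spots of a probe were averaged, and values are log2 intensity minus the array's 75th percentile. A probe was compared if well above background (at least 50% of its spots) on 1 of the 2 arrays. A dim value was raised to the lowest level among probes well above background, and its fold is a bound ("at least"). Of 41000 probes, 27210 of the 28354 with a RefSeq accession matched a symbol in the GRCh38.p14 table. The array grid was annotated on hg19, so no probe coordinates are given.

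With 1 array a group no test was made, and precision is limited by the number of arrays. The members and gene lists were chosen with earlier results of these data known. The genes named were all members, the targeted genes, HMOX1, list probes past 2-fold in a comparison with WT, and the 5 patterns nearest to RUNX1T1; other list genes were named after their values were seen. The comparison code was tested on simulated data. Python 3.11.15, numpy 2.4.6, pandas 2.3.3, R 4.3.3 and limma 3.58.1 (normexp with an offset of 50, quantile and cyclic loess alternatives) were used. Normexp took the median signal of a spot, since the files used hold no mean signal.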

Additional observations from a re-analysis of the deposited data

How the results depend on the processing

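No paired analysis was possible because each group had 1 array. The 6 member differences past 2-fold kept their sign in all 56 recomputed values, but many of these could not differ. The series matrix holds the same intensity times 1 factor an array. Changes of filter or floor and the gene mean leave RUNX1T1 and CBFA2T3 as they are, each having 1 probe well above background on every array. Of the 34 differences under 2-fold, 5 turned sign in at least 1 alternative. With normexp on the RUNX1T1 differences the values were 1.49 in Arp5 KO cells, 2.16 in Arp8 KO cells and 1.03 on the array labelled Arp8 OE, and with Arp8 OE as the reference they were 0.60 in Arp5 KO cells and 1.46 in Arp8 KO cells; for CBFA2T3 that reference gave 0.68 and 0.99. Scaling to the median put 2 member probes past 2-fold between Arp8 KO and the array labelled Arp8 OE, CBFA2T3 being at 1.04. Without probes beside a bright spot the counts of members past 2-fold were 1 in Arp5 KO cells and 1 in Arp8 KO cells, CBFA2T3 being left out. At 4-fold they were 1 in Arp5 KO cells, 1 in Arp8 KO cells, 0 on the array labelled Arp8 OE and 0 between Arp8 KO and that culture, each 1 being RUNX1T1, for which the set was picked, where 1.19%, 1.59%, 1.36% and 1.18% of all probes passed. They were at 1.5-fold 4 in Arp8 KO cells, 3 in that culture, 2 between the knockouts (14.7% of all probes) and 2 between Arp8 KO and that culture (16.0%). RUNX1T1 was 1 of the probes in each of these counts. Over all probes, normexp gave 130 higher and 177 lower past 2-fold in Arp5 KO cells, 258 and 438 in Arp8 KO cells, and 261 and 184 on the array labelled Arp8 OE, against 411 and 488, 828 and 1068, and 715 and 520. Without probes beside a bright spot they were 153 and 223, 620 and 716, and 408 and 263. Without a filter or floor they were 1077 and 1679, 1762 and 2810, and 1572 and 1743, and the median of all probes was 0.11 on the array labelled Arp8 OE. DNTT on the array labelled Arp8 OE fell short of 2-fold in 3 alternatives (lowest 0.98) and RAG1 in 1 (0.83). Over the alternatives the median of the blood targets ranged from -0.45 to -0.01 in Arp5 KO cells and from -0.54 to -0.06 in Arp8 KO cells, and that of the RUNX2 bone targets in Arp8 KO cells from -0.13 to 0.36. Dim spots, such as RUNX1T1 in WT, limit how well a fold is known.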
